A study of Homo sapiens with 2 samples.

Results

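TP73 occupancy in TL-Om1 cells was examined at isolated peaks, meaning autosomal ChIP-seq peaks whose summit lies more than 300 kb from every other summit on the chromosome. The first and last summit of each chromosome were left out, because 1 of their sides has no neighbour. Of 18908 peaks in the deposited list, 18520 lie on autosomes and 18476 of these have a summit on both sides. The peaks were chosen by these measured summit distances, which left 663 isolated peaks, 3.59% of the 18476 (95% exact binomial interval 3.32 to 3.87). The distances that chose these peaks come from the same list as their fold, width and q-value. All comparisons of isolated with other peaks below are therefore descriptions without a test.

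TL-Om1 is a long-established leukaemia line, grown from human adult T-cell leukaemia. It was studied with 1 library immunoprecipitated with an antibody against TP73 and 1 library of whole cell extract, both from cells grown in RPMI-1640 with 10% serum and fixed with formaldehyde for 10 min. No treatment or genotype separates the libraries, and with a single library in each group no spread between cultures can be given. According to the labels the control was whole cell extract, but the text IgG is part of the deposited peak names. Which library the caller used is not settled, and "control" below means that library.

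TP73 is a transcription factor of the p53 family. Its members bind DNA as tetramers at a shared kind of site made of repeated short elements, and they do so at promoters and at sites far from any gene. Full-length TP73 activates genes of cell-cycle arrest and cell death, and shorter forms that lack the activation domain can oppose it. Mammalian genomes alternate between gene-dense stretches and long gene-poor ones, often called gene deserts, some of which hold distant regulatory elements. Peaks far from any other are the sparse end of the TP73 map.

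Isolated peaks stood far from their neighbours on both sides. The distance to the nearer summit had a median of 437 kb, with quartiles of 359 and 640 kb and a highest value of 2693 kb. At other autosomal peaks the median was 14.98 kb, with quartiles of 2.74 and 51.2 kb. The farther neighbour of an isolated peak lay at a median of 897 kb. The nearer neighbour was the previous summit at 339 isolated peaks and the next summit at 324, so neither side dominated. Sides were often unequal: the farther distance was a median of 1.62 times the nearer one, and more than 3 times at 118 peaks. More than 500 kb separated 263 isolated peaks (39.7%) from any other summit, and more than 1 Mb separated 46 (6.94%). Sequence nearer to an isolated summit than to any other amounted to 562 Mb, or 20.2% of the 2785 Mb between the first and last autosomal summits. Any assembly gaps in these intervals were not taken out of either length.

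**Figure D1:**
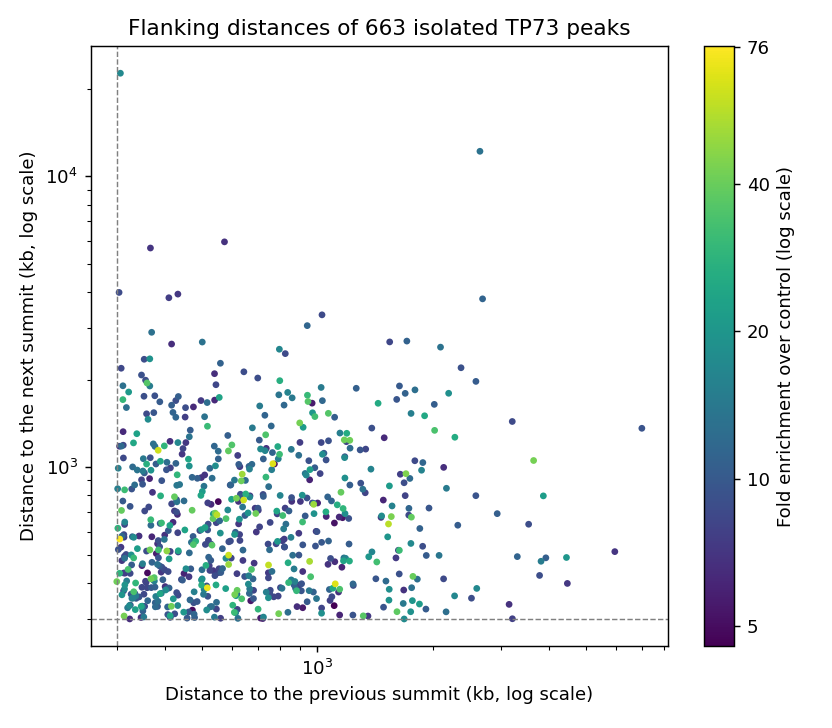
Distance from each of the 663 isolated peaks to the previous summit (x axis) and the next summit (y axis), both in kb on log scales, with 1 point per peak coloured by fold enrichment. Dashed lines mark the limit of 300 kb; folds over 20 are found both near the limit and among peaks over 1 Mb from any other summit.

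On both sides of the limit of 300 kb, the nearest peaks ranged in fold from under 10 to over 15 (positions are on hg19, counted from 1). Just inside were a peak at chr5:27472054-27472440, with its nearest summit at 300008 bp and a fold of 41.2, one at chr7:20281155-20281422 (300506 bp, fold 17.5), and one at chr14:91188344-91188493 (300611 bp, fold 6.60). Just outside was a peak at chr9:65537039-65537235, at 299894 bp and with a fold of 16.04. Also outside were 2 neighbours on chromosome 7 that lie 299822 bp from each other, at chr7:119373648-119373886 (fold 10.4) and chr7:119673511-119673685 (fold 8.49).

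Isolated peaks were about as strongly enriched as the rest. Fold enrichment here is the authors' ratio of ChIP pileup to control background at the summit, with the same constant added to both. It is therefore lower than the plain ratio of ChIP to control reads. Its median was 11.2 at isolated peaks (95% order-statistic interval 10.6 to 11.7) and 11.3 at the 17857 other autosomal peaks (11.2 to 11.5), so the intervals overlap. Quartiles were 8.60 and 17.9 against 8.31 and 18.7. The median −log10 q-value was 30.4 in both sets. The ChIP reads over the summit, recovered from fold and p-value, also had a median of 43 in both sets, with quartiles of 32 and 69 against 31 and 73. These intervals cover counting error only and treat peaks as independent.

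In the tail of high folds the sets were close at the lower limits and apart at the highest. A fold of at least 10 was reached by 400 isolated peaks (60.3%), where 59.7% of all autosomal peaks reach it. A fold of at least 20 was reached by 140 (21.1%, exact interval 18.1 to 24.4), and the interval holds the 22.9% of all autosomal peaks. At least 50 was reached by 12 isolated peaks, or 1.81% (exact interval 0.939 to 3.14), against 3.55% of all autosomal peaks. Peaks 100 to 300 kb from the nearest summit reached it at 2.94% (2.28 to 3.72), which overlaps the isolated interval. Among the 100 autosomal peaks with the highest folds 2 were isolated, and among the highest 1000 there were 17, while isolated peaks made up 3.58% of all autosomal peaks. The strongest isolated peak had 266 ChIP reads at its summit, where the highest count anywhere in the list was 284. At the weak end the isolated set was not enlarged: its 10th percentile of fold was 7.17 against 7.03.

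Width separated the sets more clearly than strength. Isolated peaks had a median width of 229 bp (interval 222 to 239) against 257 bp (254 to 259) at other autosomal peaks, and the intervals do not overlap. The upper quartile was 294.5 bp against 353 bp. Widths of at least 500 bp were found at 20 isolated peaks, or 3.02% (1.85 to 4.62), against 9.21% (8.79 to 9.64) of the others. Widths under 200 bp were found at 32.1% (28.6 to 35.8) against 26.6%. Both sets shared the shortest width of the list, 142 bp, which 17 isolated peaks had. Peaks 100 to 300 kb from the nearest summit were closer to the isolated set. Their median width was 237 bp (232 to 242) and 30.9% (29.0 to 32.8) were under 200 bp, which overlap the isolated intervals. Their share of at least 500 bp, 5.78% (4.85 to 6.83), lay above the isolated interval.

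Across distance classes from 1 kb upward, median width fell while median fold hardly moved and high folds became fewer. Peaks with their nearest summit 1 to 10 kb away were the widest, with a median of 271 bp, followed by 254 bp at 10 to 100 kb, 237 bp at 100 to 300 kb and 229 bp at the isolated peaks. Median folds in the same order were 11.7, 11.5, 11.3 and 11.2. A fold of at least 20 was reached by 25.7% (24.5 to 26.9), 23.1%, 21.5% and 21.1% (18.1 to 24.4). At least 50 was reached by 4.69%, 3.40%, 2.94% and 1.81%. Peaks within 1 kb of another summit departed from this order. Their median fold of 10.3 was the lowest of the 5 classes, and their median width was 256 bp.

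**Figure D2:**
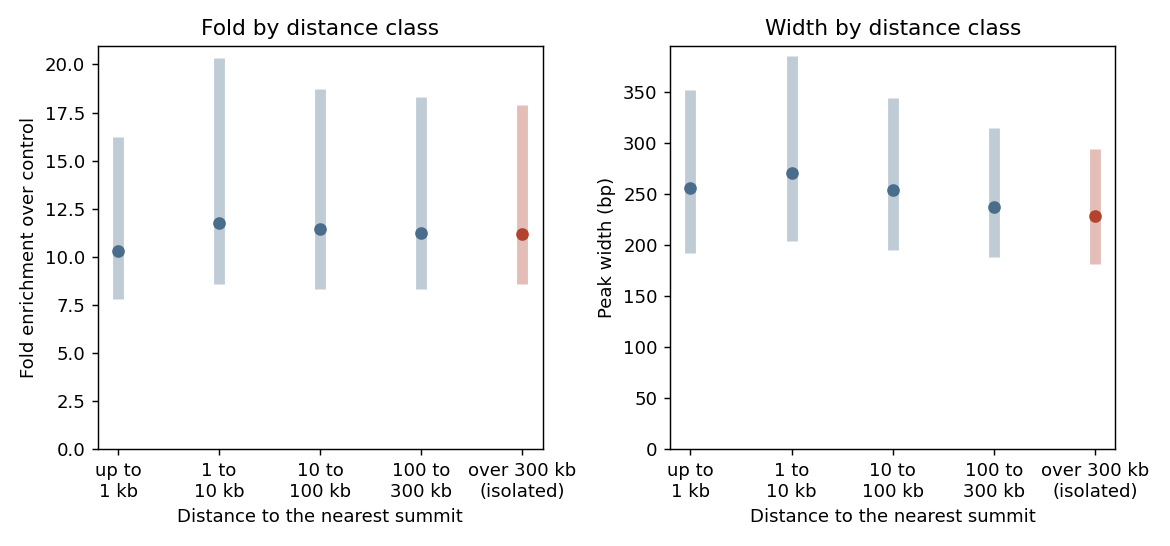
Fold enrichment (left) and peak width in bp (right) by distance to the nearest summit; points are medians and bars run from the lower to the upper quartile. The median width is 271 bp at 1 to 10 kb and 229 bp at the isolated peaks, while the median folds of these classes are 11.7 and 11.2.

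Peak width grows with the reads at the summit (Spearman's rho 0.82 across isolated peaks and 0.74 across the others; both measures come from the same pileup). Widths were therefore compared at like numbers of ChIP reads, a comparison chosen after the data were seen. With 18 to 30 reads, 137 isolated peaks had a median width of 159 bp (156 to 168) against 175 bp (174 to 177) at 3992 other peaks. With 43 to 72 reads the medians were 246 bp (241 to 251) and 270.0 bp (268 to 273). With at least 142 reads, 47 isolated peaks had a median of 433 bp (394 to 457) against 488.5 bp (480 to 498). Isolated peaks were the narrower set in all 5 read classes, by 15 to 55.5 bp.

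Part of this gap was found without isolation. Among the other peaks with 43 to 72 reads, those over 10 kb from the nearest summit had a median of 261 bp (258 to 263), and those within 10 kb 288 bp (284 to 293). Isolated peaks in that class, at 246 bp, were below both. In the class of 73 to 141 reads the interval of isolated peaks, 301 to 336 bp, overlaps that of the peaks over 10 kb away, 329 to 339 bp. How far the caller's joining of neighbouring enriched stretches enters these widths was not tested.

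**Figure D3:**
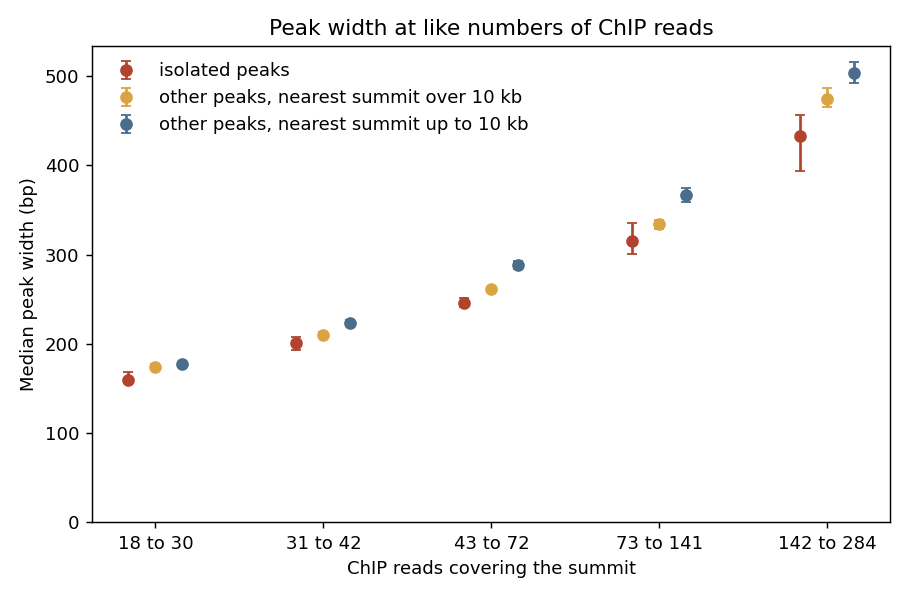
Median peak width in bp by the number of ChIP reads at the summit, for isolated peaks and for other autosomal peaks over and up to 10 kb from the nearest summit; bars are 95% order-statistic intervals. Isolated peaks have the lowest median in each of the 5 classes, from 159 bp at 18 to 30 reads to 433 bp at 142 to 284 reads.

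Summits lay nearer the middle of the peak with growing distance, up to the isolated set but not within it. The summit fell in the middle of the peak, between 33.3% and 66.7% of its width, at 609 of 663 (91.9%, exact interval 89.5 to 93.8) against 83.9% (83.3 to 84.4) at the other peaks. By distance class the share was 81.7% up to 1 kb, 82.8% at 1 to 10 kb, 84.3% at 10 to 100 kb and 87.1% (85.7 to 88.5) at 100 to 300 kb, so the rise was not confined to isolated peaks. The median summit position was 49.3% of the width against 49.4%, so the sets differed in spread and not in centre. From 10th to 90th percentile the position ran from 38.7% to 61.6% at isolated peaks and from 34.4% to 64.0% at the others. Among isolated peaks the share in the middle did not rise further. It was 91.9% at 300 to 400 kb, 91.7% at 400 to 600 kb, 92.3% at 600 kb to 1 Mb and 91.3% over 1 Mb. These shares were not compared at like width or reads.

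Among isolated peaks, neither strength nor width moved steadily with distance. The 271 isolated peaks with the nearest summit 300 to 400 kb away had a median fold of 11.5 (10.2 to 12.6) and a median width of 234 bp. At 400 to 600 kb, 204 peaks had 10.9 and 214 bp. At 600 kb to 1 Mb, 142 peaks had 11.9 and 240.0 bp. The 46 peaks over 1 Mb from any summit had 10.9 (9.74 to 13.2) and 217.5 bp. Over the 663 peaks Spearman's rho of the nearest distance was 0.03 with fold and -0.01 with width, given as descriptions.

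The control under the isolated peaks was close to that under the rest. The caller's background stood at its genome-wide floor, 2.41 control reads per fragment length of 142 bp, at 358 isolated peaks (54.0%, 50.1 to 57.8) and at 51.05% of other autosomal peaks. Fewer control reads near a peak would not show under such a floor. The share was 51.3% at isolated peaks 300 to 400 kb from a summit and 67.4% (52.0 to 80.5) at those over 1 Mb away. No isolated peak had a background over 8 control reads, where other autosomal peaks, a far larger set, reached 34. The upper quartile of 3 and the 90th percentile of 4 control reads were the same in both sets. The control was raised at nearly all peaks in 3 places, which are chromosome 15, the part of chromosome 1 past 200 Mb and the part of chromosome 7 past 80 Mb. These stretches held 36 isolated peaks among 1934 peaks (1.86%). None stood at the genome-wide level, which the choice of places with a raised control largely fixes. Their isolated shares differed, with 0.879% of peaks on chromosome 15, 1.65% on the part of chromosome 1 and 3.37% on the part of chromosome 7. In the other autosomal sequence 627 of 16586 peaks (3.78%) were isolated, and 57.1% of these stood at the genome-wide level against 57.0% of the other peaks there.

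The 10 isolated peaks with the highest folds lay on 6 chromosomes, had folds from 56.4 to 76.5 and were 433 to 576 bp wide. First was a peak at chr3:29373787-29374310, with a fold of 76.5, a −log10 q-value of 411.9 and 266 ChIP reads. It ranked 24th by fold among all autosomal peaks, and its neighbours lay 305 kb before and 566 kb after it. Also on chromosome 3, the peak chr3:89228691-89229265 had a fold of 66.7 and no other summit within 765 kb. Chromosome 10 held the second and the sixth, which are each other's nearest neighbours at a distance of 385 kb, at chr10:106184394-106184905 (fold 70.4) and chr10:106568942-106569467 (fold 61.6). Strong enrichment at the latter was followed by 1143 kb without a summit.

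Chromosome 7 held 3 of these 10, at chr7:51852798-51853302 (fold 61.9), chr7:133512402-133512847 (fold 59.0) and chr7:3995620-3996052 (fold 56.4). The peak at 133512402 had 251 ChIP reads, more than any other of the 10 except the first, but its background of 3.17 control reads lowered its fold. The remaining 3 were at chr2:19854384-19854835 (fold 66.3), chr11:43167265-43167840 (fold 60.9) and chr6:100619676-100620155 (fold 57.3, with 1531 kb free of summits before it). The genome-wide control level applied at 6 of the 10.

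None of these 10 was among the 10 most distant. The most distant isolated peaks had folds from 9.17 to 18.6, 9 of them between the isolated quartiles of 8.60 and 17.9 and 1 above, with 31 to 64 ChIP reads and widths of 154 to 332 bp. The farthest lay at chr16:61357379-61357564, with a fold of 11.2 and 38 reads; its neighbours were 2693 kb before and 3791 kb after it. Also on chromosome 16, the peak chr16:34539908-34540119 had a fold of 13.2 and was followed by 12199 kb without a summit, the longest such interval of that chromosome. Whether assembly gaps or sequence to which reads cannot be mapped fill this interval was not tested. On chromosome 12, the peak chr12:83264336-83264667 also had a fold of 13.2, with 2092 kb to its nearest summit. Peaks at chr8:15605487-15605687 (fold 10.2, 1972 kb), chr11:38616583-38616804 (fold 10.9, 1710 kb), chr6:67043923-67044127 (fold 10.9, 1693 kb) and chr15:25684148-25684355 (fold 10.5, 1644 kb) were of like strength.

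The 3 others of the most distant peaks followed each other on chromosome 4. They lay at chr4:132114294-132114447 (fold 9.17), chr4:134311419-134311673 (fold 18.6) and chr4:136106508-136106718 (fold 12.6), with 2197 and 1795 kb between their summits. With 2 more isolated peaks, at chr4:137950431-137950707 (fold 21.2) and chr4:138288707-138289057 (fold 23.2), they formed a run of 5. Those 5 peaks were the only summits inside a stretch of 9.84 Mb.

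The 5 lowest folds among isolated peaks ran from 4.56 to 4.99, each over a control above the genome-wide level. At 4 of the 5 the summit had 27 to 29 ChIP reads, below the lower quartile of 32, and at the fifth it had 45, above the median of 43. The lowest was at chr7:146019193-146019341, with 27 ChIP reads over 5 control reads. At chr3:139899455-139899596, 28 ChIP reads over 5 gave a fold of 4.72. Peaks at chr4:145696341-145696547 and chr5:45361483-45361640 both had 29 reads over 5 and a fold of 4.88. At chr7:95099910-95100104, 45 reads over 8 gave 4.99. The widest isolated peak, 826 bp, was at chr12:77459280-77460105 and had 230 ChIP reads over 7 control reads, a fold of 28.2. Among the shortest, at 142 bp, the first by position was at chr1:86174056-86174197, with a fold of 6.35.

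Isolated peaks often followed each other, which the rule partly builds in, since the neighbour of an isolated peak already has 1 side free for over 300 kb. For 398 of them (60.0%) the previous or the next summit was itself isolated, with 306 having 1 such neighbour and 92 having 2. Over all autosomal peaks 3.58% were isolated, and 12.8% of the intervals between neighbouring summits exceeded 300 kb. The 663 peaks made 265 single occurrences, 91 runs of 2 and 62 runs of 3 or more, the last holding 216 peaks. A run of n isolated peaks is a stretch in which n summits are all more than 300 kb from each other and from the summits at both ends.

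The longest run held 9 peaks on chromosome 5, the only summits between 17317191 and 26942827, a stretch of 9.63 Mb. Their folds varied widely, from 6.34 to 52.9 with a median of 15.5. The strongest came first, at chr5:18271031-18271461 with a fold of 52.9 and 192 ChIP reads. A weak peak at chr5:18745259-18745465 (fold 10.2) lay 474 kb after it and was followed by a strong one at chr5:19322837-19323248 (fold 34.5). Next were peaks at chr5:19988080-19988309 (fold 15.5), chr5:20972737-20973103 (fold 32.2) and chr5:22465388-22465580 (fold 6.34). The last were at chr5:23727407-23727621 (fold 10.7), chr5:25594788-25595081 (fold 16.001) and chr5:26570689-26570926 (fold 10.9). The longest interval inside the run was 1867 kb. The window of chromosome 5 from 20 to 30 Mb held 12 peaks, of which 8 were isolated.

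**Figure D4:**
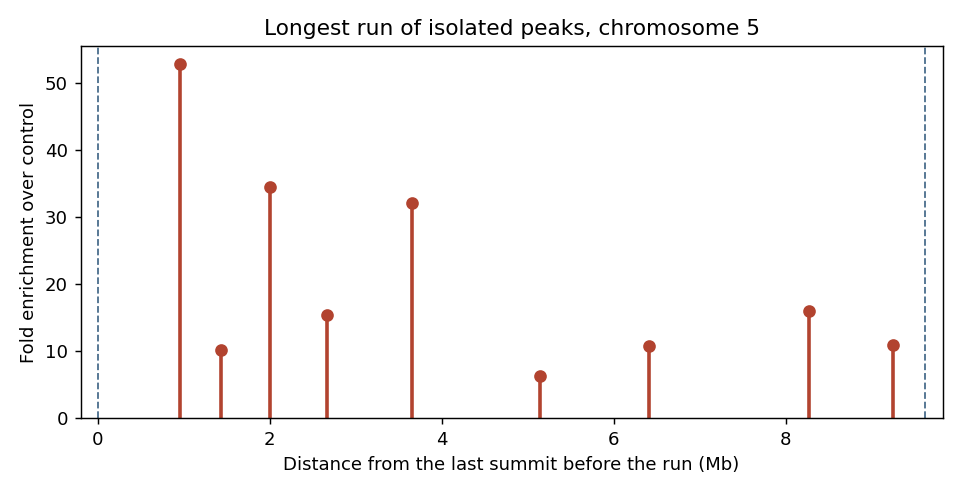
Fold enrichment of the 9 isolated peaks in the run on chromosome 5, against the distance in Mb from the last summit before the run; dashed lines mark the summits at both ends of the stretch of 9.63 Mb. Folds run from 6.34 to 52.9, and strong and weak peaks alternate in the first part of the stretch.

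Other runs differed in strength. A run of 6 on chromosome 3, between summits at 105246943 and 110212838, held no strong peak, with folds of 7.17 to 13.5, around the isolated median of 11.2, and widths of 156 to 251 bp. By contrast, a run of 5 on chromosome 14, between 40381193 and 45398138, reached a fold of 41.2 with a median of 25.8. The run of 4 on chromosome 10 that holds the second strongest isolated peak had folds of 70.4, 61.6, 34.4 and 5.73. Within 1 sparse stretch of 2.93 Mb, folds thus spanned nearly the range of the whole isolated set.

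Isolated peaks were unevenly shared among chromosomes. By number, chromosome 3 carried the most with 72, followed by chromosome 6 with 61, chromosome 2 with 60, chromosome 5 with 59 and chromosome 4 with 48. As a share of the eligible peaks of the chromosome, chromosome 6 came first with 7.79% (exact interval 6.01 to 9.90), followed by chromosome 3 with 6.53% (5.14 to 8.15), then by chromosome 5 (5.98%, 4.58 to 7.64), chromosome 13 (5.88%, 4.03 to 8.25) and chromosome 4 (5.83%, 4.33 to 7.66). Intervals of these 5 overlap, so their order is not resolved. At the other end, chromosome 22 had 2 isolated peaks (0.480%, 0.0581 to 1.72), chromosome 19 had 6 (0.871%, 0.320 to 1.89), chromosome 15 had 7 (0.882%, 0.355 to 1.81) and chromosome 17 had 8 (0.882%, 0.382 to 1.73). The upper limits of these 4 lie below the lower limits of the first 5. All these intervals treat peaks as independent, although 60.0% of isolated peaks had an isolated neighbour. They can therefore be too narrow, and the separation is a description only.

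Where peaks are sparse, more of them are isolated by the rule itself. Across 22 autosomes the isolated share fell with peaks per Mb (Spearman's rho -0.92), which is built in and given only as a description. The gene count of a chromosome is separate from the peak list, but the summit span that divides it is not. The number of protein-coding genes on each chromosome was counted in RefSeq's table for GRCh38.p14 and divided by the summit span on hg19; only the count was used, no gene position. The isolated share fell with genes per Mb (rho -0.82, n = 22 chromosomes), and peaks per Mb rose with genes per Mb (rho 0.88). Whether the isolated share follows gene content apart from peaks per Mb was not tested. The 7 autosomes with the fewest genes per Mb held 48.3% of isolated peaks and 32.8% of all autosomal peaks. The 7 with the most held 15.8% and 34.0%.

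Single chromosomes departed from this order. Chromosome 19, with 24.8 genes per Mb, and chromosome 15, with 7.53, had nearly the same isolated share, 0.871% and 0.882%. Chromosome 12, with 7.67 genes per Mb, had 2.42% (1.56 to 3.58), and its interval overlaps that of chromosome 15. Chromosome 6 had the highest share at 6.14 genes per Mb, while chromosome 18, the poorest in genes at 3.47 per Mb, had 5.45% (3.36 to 8.29). Control reads were raised over chromosome 15, where 0 of 7 isolated peaks and 0.760% of the other peaks stood at the genome-wide level. On chromosome 6, 51 of 61 isolated peaks (83.6%) and 68.1% of the other peaks did. The part of control reads in the isolated shares was not tested. The position of isolated peaks relative to single genes, exons and promoters, and the sequence under them, were not analysed here, since annotation and sequence of hg19 were not used.

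**Figure D5:**
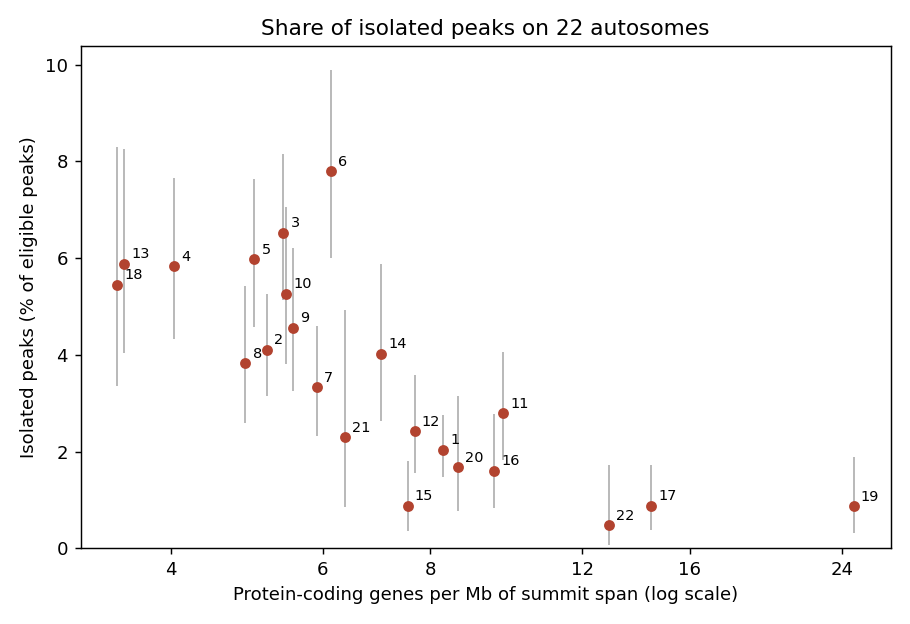
Isolated peaks as a percent of eligible peaks on each of 22 autosomes (numbered points), against protein-coding genes per Mb of summit span on a log scale; bars are 95% exact binomial intervals. Shares run from 0.480% on chromosome 22 to 7.79% on chromosome 6 and are mostly higher on gene-poor chromosomes.

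The narrower width was seen on most chromosomes. Among the 15 autosomes with at least 20 isolated peaks, the isolated median was below that of the other peaks on 12, with chromosomes 11 (264 against 257 bp), 12 (293.5 against 258.5 bp) and 13 (259 against 255 bp) as exceptions. Fold showed no common direction: the isolated median was higher on 6 of these chromosomes, lower on 8 and equal on chromosome 5. It ran from 9.17 on chromosome 18 to 14.1 on chromosome 12. On chromosomes 11 and 12, where isolated peaks were wider, they also had higher folds than the others, 13.7 and 14.1 against 11.2. Chromosome 13 had the wider median with a lower fold, 10.2 against 11.1.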

How the data were processed

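The values come from the peak list of 1 ChIP library (reads of 50 bases), whose coordinates the submitters' processing notes place on hg19; those notes name Bowtie2, SAMtools and MACS2, without parameters. Per the deposited narrowPeak layout, each peak has a fold ratio, −log10 p- and q-values, a score (−log10 p-value times 10, cut to a whole number, at 18903 of the 18908 peaks) and a summit offset, all made by the authors. Distances were taken between summits.

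ChIP reads and control background were recovered by solving the caller's fold and Poisson p-value together (pileup of 0.975 per read; 8987 peaks not used for that step gave whole reads within 0.01 at 100%; 101 of 18908 peaks had several solutions, and the one nearest a whole number was kept, the genome-wide background preferred). On 2000 simulated peaks the reads were recovered at 100%; the simulation uses the same formulas. Total library depth is not given in the list.

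Medians have 95% order-statistic intervals and shares exact Clopper-Pearson intervals. The members, classes and alternatives were chosen with earlier results of these data known. Regions were named by rule: the 10 highest folds, the 10 most distant, the 5 lowest folds, 3 on each side of the limit, the widest and the first of the shortest; the members of the runs described were named after their values were seen. Planned gene and motif descriptions, and 4 gene lists, need hg19 annotation or sequence and were not run. Software was Python 3.11.15 with scipy 1.17.1, pandas 2.3.3, matplotlib 3.10.9 and numpy 2.4.6.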

Additional observations from a re-analysis of the deposited data

How the results depend on the processing

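Over 10 alternatives (7 planned, 3 added after seeing the data), isolated peaks had the lower median width each time, 228.5 to 249 bp against 256 to 281 bp, and in all 5 read classes. Their median fold was lower under 9 and higher under 1, the limit of 200 kb (11.29 against 11.27). The number of isolated peaks was 1262 with a limit of 200 kb and 263 with 500 kb. The share on chromosome 6 was then 10.9% and 3.32%, and that on chromosome 22 was 2.64% with 200 kb. With a −log10 q-value of at least 10, the other peaks had a median −log10 q-value of 31.1. With peaks under 500 bp apart merged, the other peaks had medians of 11.7 in fold, 260.0 bp in width and 31.6 in −log10 q-value. Without chromosome 15, 53.4% of other peaks stood at the genome-wide background. With only peaks of at least 30 ChIP reads (added), isolated and other medians were 12.9 and 13.2 in fold and 249 and 281 bp in width. They were 37.9 and 39.2 in −log10 q-value, and 49 and 51 in ChIP reads. The share on chromosome 6 was then 10.8%. At the genome-wide background stood 52.6% (49.0 to 56.1) of isolated peaks and 47.2% (46.4 to 48.1) of other peaks, a wider gap than in the main setting. Fewer peaks and another limit change these by construction. Of the 130 values, 110 stayed within the interval of the value reported or, for the number of isolated peaks, within 1.5 times. The 5 alternatives on genes and motifs were not run. No paired analysis was possible because each group has 1 library. Sites below the caller's limit could stand inside the intervals called free of summits. The fewest ChIP reads at any autosomal peak were 18, and more are needed for the same p-value over a higher control background.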

Other observations

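Some isolated sites held more than 1 peak and were missed by the rule, because their own parts lie close together. With peaks under 500 bp apart merged, 678 sites were isolated, and 15 of them (2.21%) joined 2 or 3 peaks, against 5.74% of other sites. These 15 had a median fold of 19.5 at their strongest peak. The first by fold was at chr12:120105449-120106075 (fold 55.3), then came chr1:56999304-56999745 (fold 50.1), chr11:109003205-109003685 (fold 46.8) and chr7:22898608-22899073 (fold 43.5), the last joining 3 peaks. They were chosen after their values were seen.

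Isolated peaks stood on 17 of the 44 sides of the longest peak-free interval of each autosome. A peak beside such an interval already has 1 side free, so this count is partly fixed by the rule; over all autosomal peaks 3.58% were isolated. The longest of these intervals, 22.6 Mb, followed an isolated peak on chromosome 1 with its summit at 121107864 and a fold of 17.2. On chromosomes 5, 12 and 13 both sides were isolated peaks, with folds of 7.17 and 10.6, 6.83 and 7.05, and 7.61 and 14.8. Whether assembly gaps fill these intervals was not tested. Of 415 intervals over 1 Mb between neighbouring autosomal summits, 255 had an isolated peak on at least 1 side, a count that the rule partly fixes in the same way.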
